A study of Mus musculus with 12 samples.

Results

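The comparison described here set the 3s lymphoma line against the 30s lymphoma line before any excision of Runx1, using only the cultures that received vehicle. The 6 arrays of this comparison, 3 cultures of 3s cells and 3 cultures of 30s cells, belong to a series of 12 arrays in which the other cultures of both lines received IFNβ. Members were all genes with a probe set of a single gene symbol that lie off chromosomes X and Y, which gave 28183 of the 30098 genes measured. By the study's methods the 3s line came from a mouse of the genotype Mx1Cre+, Runx1 fl/fl, EµMyc, p53+/-, and its Runx1 alleles were still floxed and not excised in these cultures. The genotype given there for 30s differs only in Runx1 WT/WT, so both lines share the interferon-inducible Mx1Cre transgene, the EµMyc transgene, which drives Myc from an immunoglobulin heavy chain enhancer, and the p53+/- background. Elsewhere the study calls 3s p53 null, which these arrays cannot address because Trp53 has no probe set of its own and is not analysed here. Both lines were labelled as C57BL6/CBA and as spleen, and the vehicle, PBS with BSA, was given for 72 h and followed by 6 days of growth. The labelled genotype entry tracks treatment rather than line and conflicts with the floxed or wild type Runx1 named in the labels' source entry, so cultures were grouped by the cell name in the title.

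Each line stands for 1 tumour of 1 mouse. The 3 cultures of a line are repeats of that line, so p-values measure the spread between cultures, and the line, its mouse, its Runx1 genotype and the mix of C57BL6 and CBA alleles it inherited cannot be told apart. Values are log2 values after RMA, differences are 3s minus 30s on that scale, and a gene is said to be higher or lower in 3s cells where limma gave an adjusted p under 0.05. A floor of 5.66, the 95th percentile of the 12-array means of 1216 olfactory receptor genes, marks the level at which genes that B cells do not use were read, and 13399 members had a 12-array mean above it. Where a line lies under the floor, its difference from the other line says only that it was read at that level. The arrays correlated with each other at 0.987 to 0.996 over all probe sets, and the median SD of a gene above the floor was 0.071 in 3s vehicle cultures and 0.072 in 30s vehicle cultures; with so few arrays, small differences are measured with little precision. In RNA from whole cultures, fewer cells of a type and less RNA per cell cannot be told apart.

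B cells are built in steps that can be read from their transcripts. Pro-B cells rearrange the heavy chain genes with the Rag recombinase, and pre-B cells carry the new heavy chain with the surrogate light chains, made by Igll1 and the Vpreb genes, in the pre-B receptor. Once a light chain has been rearranged, at Igkv and Igkj segments for kappa, the cell becomes an IgM-bearing immature B cell that gains Ms4a1 (CD20), MHC class II and, later, the complement and Fc receptors Cr2 and Fcer2a. Lymphomas of EµMyc mice are known to arise at either the pre-B or the B cell step, and each usually grows from 1 rearranged clone.

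The lines differed in many genes. Of the 28183 members 7150 were called, which is 25.4% of them, with 4061 higher in 3s cells (14.4%) and 3089 lower (11%). A difference over 2-fold was reached by 548 genes (1.94%), 292 higher (1.04%) and 256 lower (0.908%). Of the members above the floor 45.9% were called, 27.7% higher and 18.3% lower. Counts of gene lists made largely of genes above the floor are to be read against these shares. Among called genes the median size of the difference was 0.37, and over all members the median difference was -0.02. The scale was lopsided at its far end, where 17 genes differed by over 16-fold, 1 of them higher and 16 lower in 3s cells.

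**Figure D1:**
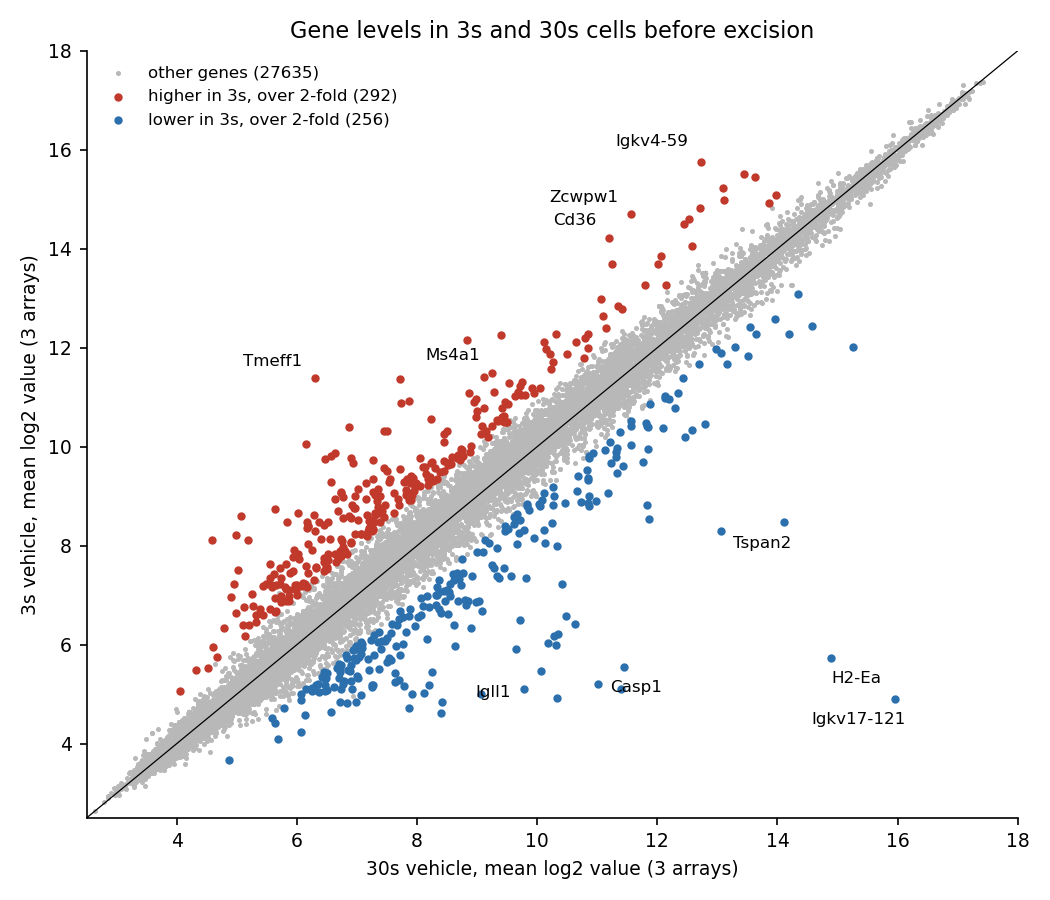
Mean log2 value of each member in 3s vehicle cultures (vertical) against 30s vehicle cultures (horizontal), 3 arrays each, with the line of equal values. The 292 genes over 2-fold higher in 3s cells are red and the 256 over 2-fold lower are blue; the points farthest from the line, Igkv17-121 and H2-Ea, lie on the 30s side.

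The IFNβ cultures of the same lines gave a separate set of arrays. With each set fitted alone, 6430 genes were called in the vehicle arrays and 7204 in the IFNβ arrays. Of the 6430, 5017 (78%) were called with the same sign in the IFNβ arrays and 20 with the opposite sign. Of the 548 genes over 2-fold, 540 (98.5%) were called with the same sign. The difference between the lines itself differed between the sets in 293 of the 28183 members (1.04%), by limma's interaction term. These cultures are of the same 2 lines, so they repeat the lines and not the genotypes.

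Both lines carried the common B lineage programme. Ebf1, a founding B lineage transcription factor, read 13.87, 13.85 and 13.83 in 3s cultures and 13.45, 13.36 and 13.35 in 30s cultures, a difference of 0.46 (SE 0.04, adjusted p = 8.93e-06). Pax5, which holds cells in the B lineage, averaged 10.57 ± 0.12 in 3s cells and 9.82 ± 0.06 in 30s cells (SD, n = 3 each), a difference of 0.74. The antigen receptor signalling chains were also higher in 3s cells, Cd79b by 0.65 and Cd79a by 0.52. Of 20 measured genes of the B lineage identity list 11 were higher, 3 lower and 6 did not pass, with a median of 0.22. All 20 lay above the floor in a line, and 70% were called, against 45.9% of members above the floor. The 3 lower genes were Blk, a Src family kinase (-1.03), Bach2, a repressor of plasma cell fate (-0.96), and Blnk, the adaptor below Syk (-0.41). In all 3 the arrays of the lines did not overlap, as was so for 38.7% of all members.

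The pre-B receptor chains separated the lines. Igll1, the lambda5 surrogate light chain, read 5.10, 4.91 and 5.33 in 3s cultures, under the floor, and 10.24, 9.55 and 9.54 in 30s cultures. The difference was -4.67 (SE 0.19, adjusted p = 1.45e-08). Its partners differed less, with Vpreb1 at 6.27 ± 0.07 in 3s cells against 6.99 ± 0.05 in 30s cells (-0.71) and Vpreb2 at 6.53 ± 0.11 in 3s cells against 7.27 ± 0.30 in 30s cells (-0.74), SD with n = 3 each. Vpreb1 and Vpreb2 are near copies of each other, so their separate values are uncertain. Vpreb3, which is made into the B cell stage, read 14.75 in 3s cells against 14.56 in 30s cells and did not pass the test (adjusted p = 0.0899).

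Other genes of the early list went both ways. Flt3, a cytokine receptor of lymphoid progenitors, read 4.69, 4.59 and 4.63 in 3s cultures and 6.48, 6.73 and 6.48 in 30s cultures (-1.93, adjusted p = 3.23e-08), and Il2ra (CD25), a marker of pre-B cells, was lower (-1.45). Enpep (BP-1), a peptidase of late pro-B and pre-B cells, read 8.54, 8.27 and 8.39 in 3s cultures and 6.28, 6.17 and 6.08 in 30s cultures (2.22), and Bst1 (BP-3) was higher by 1.99. Rag2, a subunit of the recombinase, read 7.03, 7.37 and 7.10 in 3s cultures and 5.58, 5.55 and 5.62 in 30s cultures, which lie just under the floor. The difference was 1.58 (SE 0.12, adjusted p = 2.61e-06). Dntt and Kit, markers of pro-B cells, were under the floor in both lines, at 4.41 and 4.44 in 3s cells and 4.52 and 4.45 in 30s cells. Over the list 7 of 26 measured genes were higher in 3s cells and 11 lower, 8 did not pass, and the median was -0.11.

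Genes of the mature B cell stage did not move as 1 block. Ms4a1 (CD20) read 11.45, 11.55 and 11.48 in 3s cultures and 9.18, 9.08 and 9.49 in 30s cultures, a difference of 2.24 (SE 0.13, adjusted p = 1.77e-07). Cd180, a Toll-like receptor relative of B cells, was higher by 1.38 and the costimulatory receptor Cd40 by 1.04, and no array of 1 line reached those of the other in either gene. Cd69, which holds lymphocytes in tissue and marks activation, went the other way, with 5.59, 5.52 and 5.32 in 3s cultures against 9.61, 10.30 and 10.29 in 30s cultures (-4.59, adjusted p = 3.95e-07). Cr2, a complement receptor, was close to the floor in both lines (5.86 in 3s cells against 6.20 in 30s cells, -0.34), and Fcer2a, the low-affinity IgE receptor of follicular B cells, was under it (4.46 in 3s cells against 4.56 in 30s cells, adjusted p = 0.156). Of 29 measured genes of the list 12 were higher, 5 lower and 12 did not pass, and the median was 0.00.

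**Figure D2:**
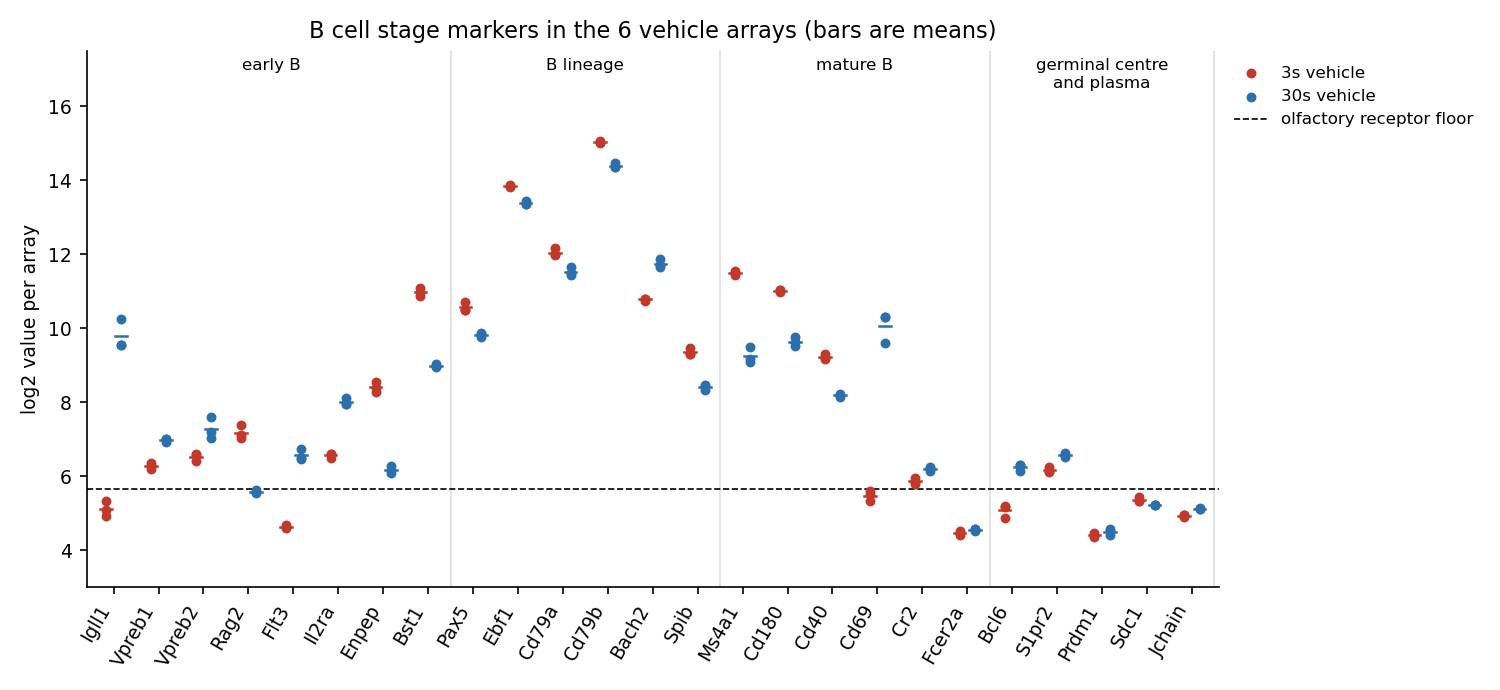
Log2 value of B cell stage markers in each of the 6 vehicle arrays, 3s in red to the left of 30s in blue, with short bars for the means and a dashed line at the olfactory receptor floor. Igll1, Flt3, Cd69 and Bcl6 lie under the floor in 3s cells but not in 30s cells, and Fcer2a, Prdm1, Sdc1 and Jchain lie under it in both lines.

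Of 15 measured germinal centre genes 9 lay above the floor in a line, and of 16 plasma cell genes 10. Bcl6, the germinal centre repressor, read 5.18, 4.88 and 5.17 in 3s cultures, under the floor, and 6.15, 6.30 and 6.31 in 30s cultures (-1.18, adjusted p = 1.3e-05). Plxnb2, a plexin receptor, was higher by 1.28 and Nuggc, a nuclear GTPase of germinal centre cells, lower (-1.19). Mybl1, a Myb relative of germinal centre cells, was higher by 0.67. In the germinal centre list 4 were higher, 4 lower and 7 did not pass. Prdm1 and Sdc1, which define plasma cells, were under the floor in both lines and did not pass, and Xbp1 read 7.54 in 3s cells and 7.55 in 30s cells (adjusted p = 0.989). Among brighter genes of the plasma cell list, Txndc5, a protein disulphide isomerase, was at 10.40 in 3s cells against 9.61 in 30s cells (0.79), and Creld2 (0.23) and Edem1 (-0.23) differed by less. The list held 4 higher and 3 lower genes of 16. Of 11 B-1 cell genes 5 were higher and 1 lower, with a median of -0.002, and only 4 lay above the floor in a line. The called share was 54.5%, against 25.4% of all members and 45.9% of those above the floor. The higher genes include Lin28b, an RNA-binding protein of fetal lymphopoiesis, at 7.56 in 3s cells against 6.50 in 30s cells (1.07), and the repressor Bhlhe41 (0.47). Zbtb32, also higher (5.52 in 3s cells against 5.07 in 30s cells), and Cd5, which defines B-1a cells, were under the floor in both lines.

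Most markers of other cell types lay under the floor. Of 26 myeloid markers 4 lay above the floor in a line, of 19 T and NK markers 2, of 17 stromal and endothelial markers 4 and of 9 erythroid and megakaryocyte markers 3. The log2 of the summed linear level of the myeloid list was 10.84 to 11.01 in 3s arrays and 10.75 to 10.86 in 30s arrays, and for T and NK markers it was 9.31 to 9.34 in 3s arrays and 9.42 to 9.47 in 30s arrays. The erythroid sum, 15.4 to 15.5 in 3s arrays and 15.5 in 30s arrays, was carried by the transferrin receptor Tfrc, which dividing cells of every kind use. Within these lists the called genes above the floor in a line were Cd68, higher by 0.46, and Ly6c2, Itgam, Mrc1, Lat and Sparc, lower, with differences of -0.20 to -0.88. The myeloid markers Cd68 (9.79 in 3s cells against 9.33 in 30s cells) and Mrc1 (8.39 in 3s cells against 8.59 in 30s cells) were read well above the floor in both lines. The calls of Itgam, Ly6c2, Lat and Mrc1 were lost on leaving out some of the arrays. The defining markers Lyz2 of myeloid cells (5.16 in 3s cells against 5.12 in 30s cells) and Cd3e of T cells (4.46 in 3s cells against 4.54 in 30s cells) were under the floor. The part of other cells in the differences above was not tested.

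Ighm, the constant region of IgM, was bright in both lines, with 15.10, 15.10 and 15.11 in 3s cultures and 15.36, 15.40 and 15.46 in 30s cultures (-0.30, adjusted p = 0.000241). The switched isotypes Ighg1 (4.96 in 3s cells against 4.99 in 30s cells), Ighg2b (4.84 in 3s cells against 4.92 in 30s cells) and Ighe (4.49 in 3s cells against 4.61 in 30s cells) were under the floor and did not pass. Ighd, Igha, Igkc and the lambda constant genes have no probe set of a single symbol and are not analysed here.

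Heavy chain V genes are joined to D and J segments to form the variable region. Of 117 Ighv genes measured, 19 were called (16.2%, against 25.4% of all members), 1 higher in 3s cells and 18 lower, and the class had a median of -0.11. Ighv3-6 read 6.24, 5.57 and 6.13 in 3s cultures and 8.40, 8.71 and 8.78 in 30s cultures, a difference of -2.65 (SE 0.19, adjusted p = 1.23e-06). Ighv1-50 was bright in both lines, at 12.59 ± 0.13 in 3s cells and 13.96 ± 0.15 in 30s cells (SD, n = 3 each), and Ighv1-59 was lower (-1.48). The 1 higher gene, Ighv1-77, lay under the floor in both lines (5.43 in 3s cells against 4.87 in 30s cells). Ighv1-2 read 16.71 in 3s cells against 16.78 in 30s cells and did not pass. V genes of a family share most of their sequence, so a probe set may read transcripts of its relatives, and the values of single V genes are uncertain.

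Kappa V genes held the largest difference of the comparison. Of 86 Igkv genes 50 were called (58.1%), 32 higher in 3s cells and 18 lower, 25 and 12 of them by over 2-fold, and 47 of the 50 were called with the same sign in the IFNβ arrays. Of all members 25.4% were called, 1.94% with a difference over 2-fold, and of those above the floor 45.9% were called. Genes of a family may be read by each other's probe sets, so the 50 calls may not count separately. The largest difference was that of Igkv17-121, with 4.55, 5.41 and 4.77 in 3s cultures and 16.03, 15.81 and 16.02 in 30s cultures (-11.04, SE 0.18, adjusted p = 6.07e-12). The 3s values lie under the floor, so that this gene was near the top of the scale in 1 line and at background in the other.

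The sign of the difference changed along the locus, and the higher stretch was largely that of the Igkv4 family. Igkv genes are numbered from the J segments outwards, and the stretches given next were drawn after the values had been seen, so no test is attached to them. From position 48 to 111, 26 of 41 genes were higher in 3s cells and 3 lower, 12 did not pass, with a median of 1.47. From position 115 to the far end at 137, 0 of 15 were higher, 12 were lower and 3 did not pass, with a median of -1.30. In the near stretch, from 1 to 47, 6 of 29 were higher, 3 lower and 20 did not pass, and 1 gene lay between the middle and the far stretch.

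The Igkv4 family made up most of the higher stretch. Of its 25 measured genes, at positions 50 to 92, 21 were higher in 3s cells by 0.84 to 3.02 and 4 did not pass. Of the 61 genes of other families 11 were higher, 18 lower and 32 did not pass, with a median of 0.006. The Igkv4 genes lie together, so position and family cannot be told apart for them. Their probe sets may also read transcripts of each other. Igkv4-59 read 15.67, 15.82 and 15.75 in 3s cultures and 12.41, 12.93 and 12.85 in 30s cultures (3.02, SE 0.21, adjusted p = 8.84e-07). Among single genes of other families in that stretch, Igkv1-88 was higher by 3.33, Igkv14-111 by 2.87 and Igkv12-89 by 2.46, while Igkv2-109 (-2.06), Igkv19-93 (-1.56) and Igkv16-104 (-0.67) were lower, of which Igkv19-93 and Igkv16-104 were named after their values were seen. In the far stretch Igkv1-133 read 6.16, 6.56 and 6.52 in 3s cultures and 10.78, 10.55 and 10.56 in 30s cultures (-4.22), and Igkv1-135 (-3.92), Igkv17-127 (-2.22) and Igkv9-124 (-2.12) were also lower. Igkj3, the only J segment with a probe set of its own, was lower (-1.36).

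**Figure D3:**
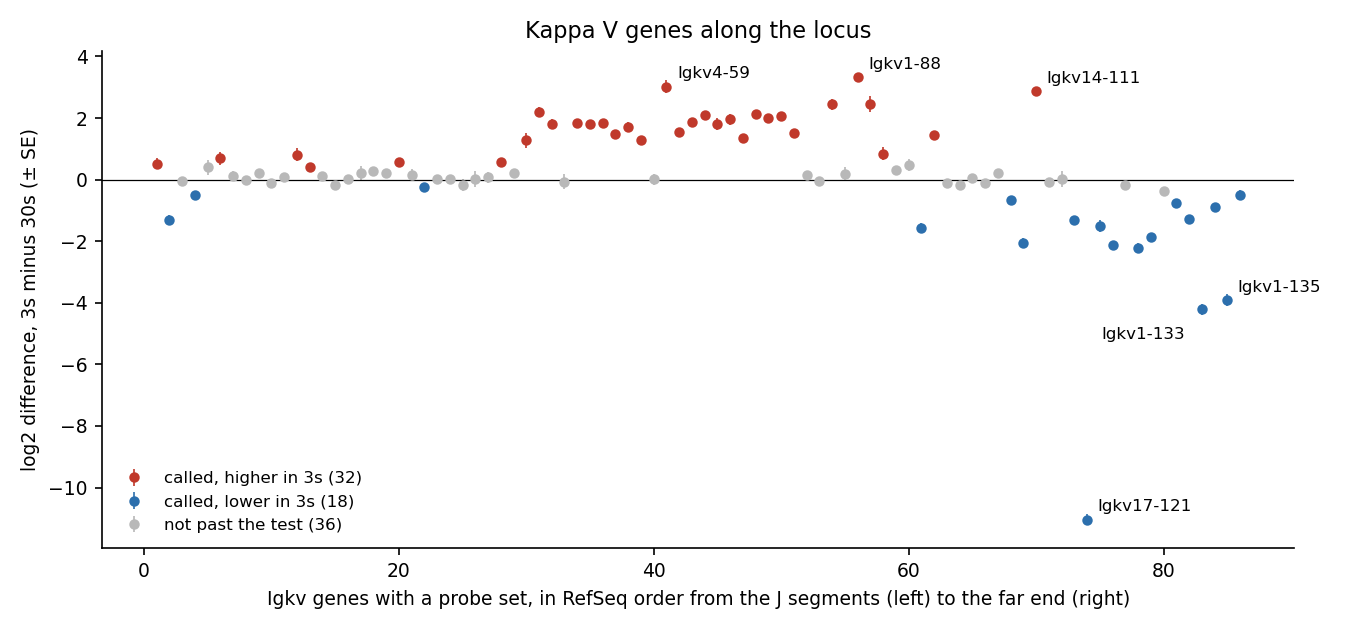
Log2 difference (3s minus 30s, bars are the standard error) of the 86 Igkv genes with a probe set, in RefSeq order from the J segments to the far end of the locus. Most genes of the middle stretch, largely of the Igkv4 family, are higher in 3s cells (red), at about 1 to 3. The genes at the far end that passed the test (blue) are all lower, with Igkv17-121 at -11.04.

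MHC class II molecules present peptides to helper T cells and are made of an alpha and a beta chain, loaded in the endosome with the help of the DM and DO proteins. Their promoters share a short arrangement of X and Y boxes that the coactivator Ciita acts on. Of 11 measured genes of the class II list 9 were higher in 3s cells by 0.49 to 1.39, 1 was lower and 1 did not pass, and the median was 0.73. All 11 lay above the floor in a line, and among members above the floor 27.7% were higher and 18.3% lower. Whether the lines differ in sequence under these probe sets was not tested. For comparison, genes of chromosome 17 above the floor, where all but Ciita lie, had a median of 0.14.

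The promoters of the class II genes are shown because most of these members were higher in 3s cells and the shared boxes can be seen in them. RefSeq (GRCm38.p6) promoters matched 8 of the 11 genes. The Y box core TGATTGG, searched on both strands in the 250 bases before the start, was present in 7 of the 8 and in 7.21% of the 32536 different promoters. The longest run of letters that H2-Eb1 and H2-DMb1 share there, AACTGATGATGCT, lies where the X box is known to be, and 2 of the 32536 promoters held it, these 2. Capitals mark the Y box core and that run, each stretch runs 5′ to 3′ on the gene's strand, and both motifs were picked after the sequences had been looked at. A match is a description of letters and not of binding.
H2-Aa (chr17:34287855-34287924, minus strand): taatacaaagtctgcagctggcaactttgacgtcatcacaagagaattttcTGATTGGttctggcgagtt
H2-Eb1 (chr17:34305755-34305824, plus strand): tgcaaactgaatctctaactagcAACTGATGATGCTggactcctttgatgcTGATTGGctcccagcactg
H2-Eb2 (chr17:34325522-34325591, plus strand): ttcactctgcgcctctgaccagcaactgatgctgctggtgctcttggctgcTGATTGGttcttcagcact
H2-DMb1 (chr17:34153087-34153146, plus strand): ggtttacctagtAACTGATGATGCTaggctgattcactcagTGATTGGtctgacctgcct
H2-DMb2 (chr17:34145106-34145175, plus strand): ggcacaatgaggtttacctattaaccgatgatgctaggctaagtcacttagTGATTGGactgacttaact
H2-Oa (chr17:34092283-34092352, plus strand): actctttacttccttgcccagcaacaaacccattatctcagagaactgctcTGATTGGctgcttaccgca
H2-Ob (chr17:34238795-34238864, plus strand): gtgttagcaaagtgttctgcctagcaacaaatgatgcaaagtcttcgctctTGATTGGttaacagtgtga

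Among the classical chains H2-Ab1 differed most in the higher direction, with 12.77, 12.73 and 12.87 in 3s cultures and 11.44, 11.37 and 11.40 in 30s cultures (1.39, SE 0.06, adjusted p = 2.16e-08). H2-Eb1 was higher by 0.67, H2-Aa by 0.59 and H2-Eb2 by 0.49. The peptide-loading chains H2-DMb2, H2-DMb1 and H2-DMa were higher by 0.93, 0.87 and 0.73, and the DO chains H2-Oa and H2-Ob by 0.75 and 0.73. H2-DMb1 and H2-DMb2 are close copies, so their separate values are uncertain. In the IFNβ arrays 4 of the 9 genes (H2-Ab1, H2-Ob, H2-Oa and H2-Aa) were again called higher in 3s cells and 5 were not called. Ciita itself did not differ beyond its spread in the vehicle arrays, with 8.99, 9.02 and 9.24 in 3s cultures and 9.05, 9.13 and 9.04 in 30s cultures (0.01, SE 0.06, adjusted p = 0.918), and in the IFNβ arrays it was lower in 3s cells (-0.47).

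H2-Ea, the alpha chain of the E molecule, stood apart from this group. It read 5.73, 5.62 and 5.83 in 3s cultures, at about the floor, and 14.91, 14.92 and 14.87 in 30s cultures, a difference of -9.17 (SE 0.12, adjusted p = 1.06e-12). As background, C57BL/6 mice carry an H2-Ea allele with a deleted promoter that is not transcribed, whereas CBA mice express the E molecule. Of 5 measured genes on a list of those with known C57BL/6 alleles 4 were lower in 3s cells and 0 higher, the others being the viral restriction factor Apobec3 (8.92 in 3s cells and 10.08 in 30s cells, -1.16), the glyoxalase Glo1 (-0.66) and the transhydrogenase Nnt (-0.24), which was higher in 3s cells in the IFNβ arrays (0.36). Of these 5 genes, 4 lay above the floor in a line. Among all members above the floor 18.3% were lower and 27.7% higher. H2-Ea and Glo1 both lie on chromosome 17, so they may not count separately. Whether the listed alleles act in the same direction was not tested, so the count does not speak to strain. The alleles of the lines were not measured.

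Class I molecules present peptides that the proteasome makes and Tap carries. Of 16 measured genes 62.5% were called, against 45.9% of members above the floor. Of the 16, 10 were higher in 3s cells and 0 lower, with a median of 0.30. The largest were Psmb10, a subunit of the immunoproteasome (0.92), H2-T24 (0.67) and Psmb9 (0.57), and the peptide transporter Tap1 was higher by 0.54. B2m, the light chain of class I, read 16.38 in 3s cells against 16.43 in 30s cells and did not pass. Among 39 interferon-stimulated genes 11 were higher, 5 lower and 23 did not pass, with a median of 0.00. Ifit2, which binds viral RNA, read 7.82, 7.46 and 8.05 in 3s cultures and 6.00, 5.88 and 5.95 in 30s cultures (1.84, adjusted p = 5.96e-07), and Samd9l, a restriction factor, was higher by 1.38, while Irf7 and Mx1 were under the floor in both lines.

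In the list of signalling below the B cell receptor 15 of 32 genes were higher in 3s cells and 6 lower, 11 did not pass (65.6% called), and the median was 0.17. Of these 32, 29 lay above the floor in a line, and among all members above the floor 45.9% were called, 27.7% higher and 18.3% lower. Syk, the kinase that the receptor recruits, read 9.97, 9.96 and 10.07 in 3s cultures and 9.11, 9.06 and 8.97 in 30s cultures (0.95, adjusted p = 1.95e-07). Prkcb was higher by 0.91 and Plcg2 by 0.59, while Rasgrp3, an activator of Ras, was lower (-1.29).

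In the phosphoinositide 3-kinase list 15 of 25 genes were higher, 3 lower and 7 did not pass, with a median of 0.18. Of the 25, 72% were called, against 45.9% of members above the floor. The catalytic subunit Pik3cb read 8.66, 8.53 and 8.66 in 3s cultures and 7.06, 7.31 and 7.14 in 30s cultures (1.45, SE 0.07, adjusted p = 6.07e-08), and Pik3cg was higher by 1.14 and Pik3cd by 0.54. The regulatory subunit Pik3r3 was lower (-1.19). Inpp5d (SHIP1), a phosphatase that opposes the pathway, was higher by 0.86. In the interleukin 7 receptor and JAK-STAT list 9 of 18 were higher and 2 lower. Il7r itself, the receptor of early B cells, read 13.41 in 3s cells and 13.60 in 30s cells (-0.19, adjusted p = 0.0502). Of 26 NF-kB and Toll-like receptor genes 8 were higher, 7 lower and 11 did not pass.

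The recombination list held 6 higher genes and 0 lower among 10, with a median of 0.30. Of the 10, 60% were called, against 45.9% of members above the floor. Beside Rag2 the higher genes were the end-joining factors Nhej1 (0.54), Xrcc5 (0.53), Xrcc4 (0.35) and Prkdc (0.24), and the damage kinase Atm (0.42). The call of Xrcc4 was lost on leaving out any of 4 of the 6 arrays.

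Of 43 genes of the cell cycle and mitosis 22 were higher in 3s cells and 5 lower, and the median was 0.11. All 43 lay above the floor in a line, and 62.8% were called, against 45.9% of members above the floor. Ccnd2, a D-type cyclin that drives entry into the cycle, read 9.58, 9.81 and 9.90 in 3s cultures and 6.97, 6.99 and 6.76 in 30s cultures, a difference of 2.85 (SE 0.12, adjusted p = 2.23e-08). Ccnd3, its relative, was lower (-0.36). Of the replication helicase, Mcm5 was higher by 0.76 and Mcm3 by 0.68. Of 34 genes of DNA damage signalling and repair 18 were higher, 5 lower and 11 did not pass, with a median of 0.20. The called share was 67.6%, and the largest difference was that of the histone H2ax (0.61).

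Targets of p53 went both ways, as did members at large. Of 29 genes 10 were higher, 7 lower and 12 did not pass, with a median of -0.03. Of the 29, 22 lay above the floor in a line, and 58.6% were called. Among members above the floor 45.9% were called, 27.7% higher and 18.3% lower. The higher genes include Fas (0.37), read by a probe set named for chromosome 17. Its other probe set, named for a different chromosome, was lower in 3s cells (-0.21). The direction of Fas is therefore uncertain, and its place in the count of higher genes with it. Plk2, a kinase induced by p53, read 10.41, 10.52 and 10.42 in 3s cultures and 12.69, 12.81 and 12.90 in 30s cultures (-2.35, adjusted p = 1.27e-07). Trp53inp1, a nuclear partner of p53, was lower (-1.86), as was Sesn1, a stress-induced inhibitor of mTORC1 (-1.0), whereas Ddb2, a DNA damage sensor, was higher by 1.03. Mdm2 (10.96 in 3s cells against 11.10 in 30s cells) and Cdkn1a (6.59 in 3s cells against 6.48 in 30s cells) did not pass. Without 3s replicate 1 there were 11 called members, against 17 with it. Cdkn2a, the tumour suppressor locus of p16 and p19Arf, read 8.85, 8.55 and 8.73 in 3s cultures and 8.84, 8.95 and 9.11 in 30s cultures (-0.26, adjusted p = 0.124), and the ranges overlap.

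Myc was high in both lines, with 14.37, 14.34 and 14.42 in 3s cultures and 14.68, 14.72 and 14.76 in 30s cultures (-0.34, SE 0.04, adjusted p = 0.000139). In the Myc and Max network 0 of 22 genes were higher and 5 lower, a called share of 22.7%. Of the 22, 18 lay above the floor in a line, and of members above the floor 45.9% were called. The Max partner Mxi1 was lower (-0.73), as was Mlxip (-0.65). Of 36 ribosome biogenesis genes 13 were higher, 9 lower and 14 did not pass, and no difference in them reached 2-fold. All 36 lay above the floor in a line, and 61.1% were called, against 45.9% of members above the floor.

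Runx1, the gene that distinguishes the designs of the lines, read 7.78, 7.92 and 8.0 in 3s cultures and 8.38, 8.15 and 8.19 in 30s cultures. The difference was -0.34 (SE 0.10, adjusted p = 0.0249), and the call was lost on leaving out 3s replicate 1 (-0.28, adjusted p = 0.0985), 3s replicate 2 (-0.35, adjusted p = 0.0527) or 30s replicate 1 (-0.27, adjusted p = 0.0954). Its relative Runx3 was lower (-0.25) and their partner Cbfb higher by 0.33. Among 16 RUNX family members and partners 5 were higher and 5 lower, with Tle1, a corepressor, lower (-0.63) and Tle3 higher by 0.53.

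In the TGF-beta list 2 receptors had the largest higher values. Bmpr1a, a receptor of bone morphogenetic proteins, read 7.83, 8.03 and 7.85 in 3s cultures and 6.26, 5.64 and 5.94 in 30s cultures (1.96, adjusted p = 7.59e-07), and Tgfbr2 was higher by 1.14. The ligands split, with Tgfb2 lower (-1.56) and Tgfb1 higher by 0.63. Over the list 11 of 28 genes were higher, 3 lower and 14 did not pass. In sterol and fatty acid synthesis 7 of 22 genes were higher, 11 lower and 4 did not pass (81.8% called, against 45.9% of members above the floor). Fdps, which makes farnesyl diphosphate, read 11.66, 11.66 and 11.71 in 3s cultures and 13.03, 13.14 and 13.30 in 30s cultures (-1.48, adjusted p = 2.78e-08), Insig1 was lower (-0.75), and the fatty acid elongase Elovl6 was higher by 0.87 and Fasn by 0.48. Fdps lies on chromosome 3, whose genes above the floor had a median of -0.26.

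**Figure D4:**
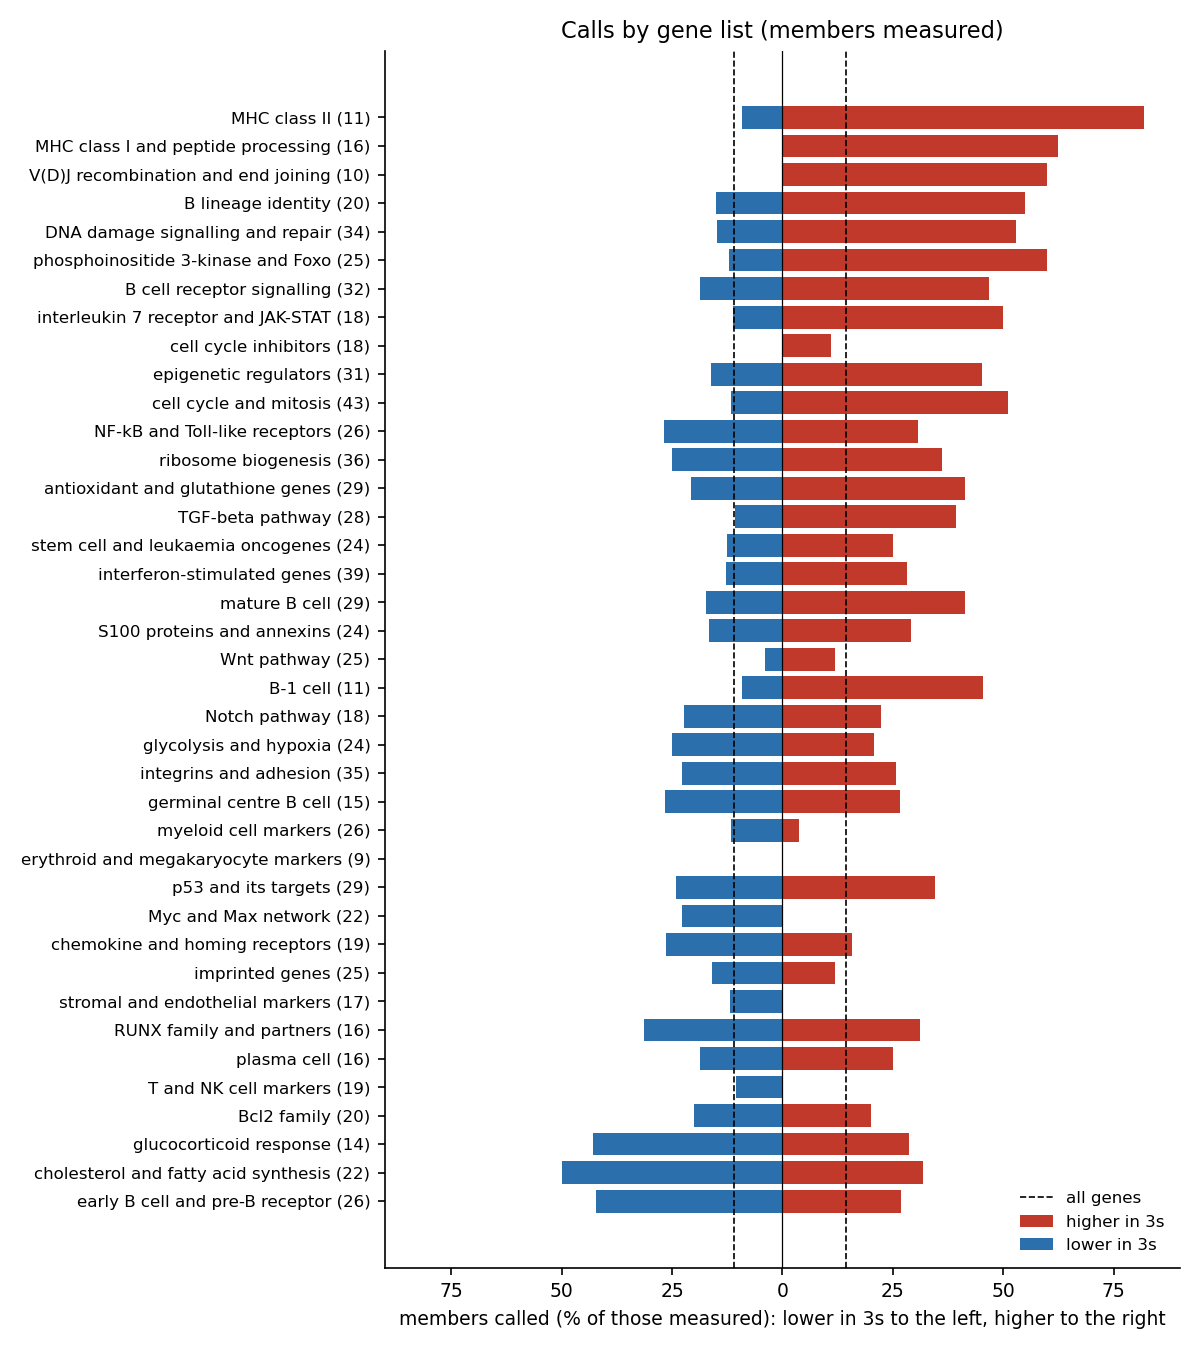
Share of the measured members of each gene list that were called higher (red, right) or lower (blue, left) in 3s cells, in percent, for the lists with at least 9 measured members, ordered by the median difference. Dashed lines mark the shares over all members, 14.4% higher and 11% lower. Among members above the floor, where most genes of many lists lie, the shares were 27.7% and 18.3%. MHC class II is at the top with 9 of 11 higher, and the early B cell list at the bottom with 11 of 26 lower.

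The 15 largest differences in each direction, leaving out predicted genes, small RNAs and immunoglobulin segments, were all called with the same sign in the IFNβ arrays. Of the 15 lower genes 8 had a 3s mean under the floor, and of the 15 higher genes 5 had a 30s mean under it. Jhy, a ciliary gene, read 5.16, 5.17 and 4.98 in 3s cultures and 11.29, 11.34 and 11.57 in 30s cultures (-6.30, adjusted p = 1.12e-12). Akr1e1, an aldo-keto reductase, was lower (-5.90), and Casp1, the inflammatory caspase, read 5.59, 4.75 and 5.29 in 3s cultures and 11.08, 11.02 and 10.94 in 30s cultures (-5.81). Its neighbour Casp4, named here after its value was seen, was lower (-3.15). Ctse, an endosomal protease, was lower (-5.62), as was Dap, a regulator of autophagy (-5.42). The matrix protein Reln was lower (-4.32), as were the Wnt-associated receptor Lgr5 (-4.14), the Golgi protein Golim4 (-4.13) and the actin-binding protein Synpo2 (-3.78).

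In the higher direction Tmeff1, a transmembrane protein with follistatin-like domains, read 11.32, 11.47 and 11.35 in 3s cultures and 6.15, 6.35 and 6.4 in 30s cultures, a difference of 5.08 (SE 0.07, adjusted p = 2.6e-12). Casd1, which acetylates sialic acids, was higher by 3.89 and Tfpi, the inhibitor of tissue factor, by 3.65. S100a6, a calcium-binding protein, read 8.03, 7.81 and 8.49 in 3s cultures and 4.54, 4.83 and 4.38 in 30s cultures (3.53), and the fatty acid receptor Cd36 read 14.29, 14.23 and 14.15 in 3s cultures and 11.20, 11.27 and 11.11 in 30s cultures (3.03). Smc1b, the meiotic cohesin, was higher by 3.22, Zcwpw1, a histone reader of meiosis, by 3.13 and Ccnb1ip1, which acts in crossing over, by 3.52. Klhl22, Rassf6, Pde8a, Hgsnat, Cyp2r1 and Ccdc90b were higher by 2.93 to 3.52.

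Several of the largest differences fell on neighbouring genes. With genes over 2-fold placed in RefSeq order and joined where their starts lay under 0.5 Mb apart, 22 groups of at least 3 genes were formed, and in 12 of them every gene went the same way. In the others genes went both ways, such as a group on chromosome 4 with 3 higher and 3 lower. Another, on chromosome 3, had 1 higher and 3 lower. Whether groups were more frequent, or more often of 1 direction, than without regard to position was not tested. The groups described next are all among the 12. Tspan2, Tshb and Sycp1 are neighbours on chromosome 3 and were lower (-4.77, -4.11 and -4.05). Tspan2, a tetraspanin, read 8.02, 8.31 and 8.54 in 3s cultures and 13.15, 13.18 and 12.83 in 30s cultures. Tshb, the beta subunit of thyrotropin, read 5.78, 6.21 and 6.51 in 3s cultures and 10.77, 10.13 and 9.94 in 30s cultures, and Sycp1, a protein of the meiotic synaptonemal complex, 5.08, 4.88 and 5.08 in 3s cultures against 8.87, 9.22 and 9.09 in 30s cultures. Cd69 lay in a group on chromosome 6 with Klrb1 (-1.51), Clec2f (-1.52) and Gabarapl1 (-1.36). On chromosome 10 Usp44, Fgd6 and Nr2c1 were lower (-1.93, -2.47 and -1.88), as were Wdr60, Esyt2 and Ncapg2 on chromosome 12 (-1.74, -1.41 and -1.16) and Rundc3b, Abcb1b and Elapor2 on chromosome 5 (-2.34, -1.09 and -2.80). In the other direction Irak1bp1, Hmgn3, Sh3bgrl2 and Elovl4 on chromosome 9 were higher by 2.33, 2.08, 1.30 and 1.83. The genes of these groups other than Tspan2, Tshb, Sycp1 and Cd69 were named after their values were seen.

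Whole chromosomes also stood apart. Over genes above the floor chromosome 3 had a median difference of -0.26, with 381 of 698 genes lower in 3s cells (54.6%) and 70 higher (10%), and chromosome 19 a median of -0.21, with 201 of 401 lower (50.1%) and 44 higher (11%). Over all members above the floor 45.9% were called, 18.3% lower and 27.7% higher, with a median of 0.02, and 3.95% differed by over 2-fold. In each of the 3s arrays the median deviation of chromosome 3 genes from the mean of the 6 arrays was -0.115 to -0.143, and in each of the 30s arrays 0.132 to 0.145, and for chromosome 19 these values were -0.085 to -0.121 in 3s arrays and 0.107 to 0.118 in 30s arrays. The arrays of the lines did not overlap in these chromosomes, as in 18 of all 19, so the size of the shift and not the lack of overlap sets them apart. Of the 15 largest lower genes 5 lie on chromosome 3, and of the 15 largest higher genes 1.

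The highest medians were those of chromosome 9 (0.17), chromosome 8 (0.16), chromosome 7 (0.16), chromosome 1 (0.15) and chromosome 17 (0.14), with 40% to 47.3% of their genes higher in 3s cells and 5.2% to 8.23% lower. In the IFNβ arrays the medians were -0.37 for chromosome 3 and -0.30 for chromosome 19. Among genes with a mean above 8 they were -0.35 and -0.29 in the vehicle arrays. Genes of a chromosome are not independent, and DNA copy number was not measured.

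**Figure D5:**
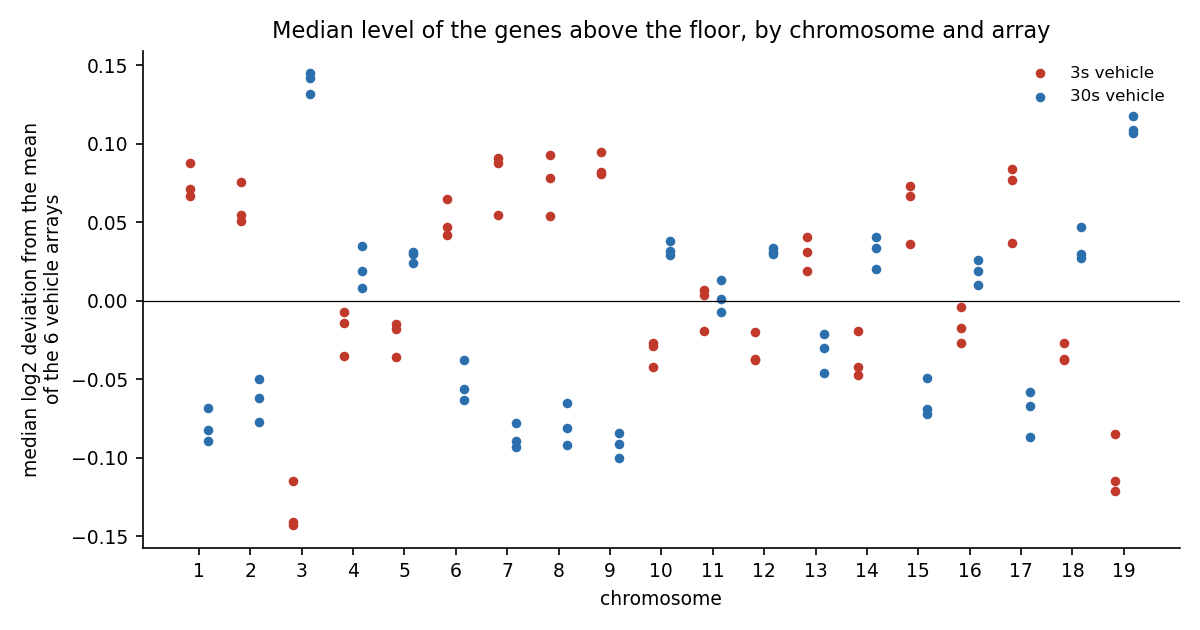
Median log2 deviation from the mean of the 6 vehicle arrays over the genes above the floor, for each chromosome and array, 3s (red) left of 30s (blue). In 9 chromosomes every 3s array lies below 0 and every 30s array above it, farthest from 0 in chromosomes 3 and 19, in 9 others (1, 2, 6 to 9, 13, 15 and 17) the lines lie the other way, and in chromosome 11 they overlap.

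MicroRNAs are short RNAs that silence transcripts matching their seed. Of 538 microRNA genes measured, 66 were called (12.3%, against 25.4% of all members), 12 higher in 3s cells and 54 lower. Mir302b read 5.09, 5.94 and 5.74 in 3s cultures and 6.75, 7.08 and 6.35 in 30s cultures (-1.14, adjusted p = 0.00157), and Mir7649 8.51, 8.63 and 8.38 in 3s cultures against 7.57, 7.57 and 7.43 in 30s cultures (0.98, adjusted p = 7.35e-06). Mir181c, of a family that acts in B cell development, was higher by 0.76 (adjusted p = 0.0191), a call lost on leaving out any of 3 of the 6 arrays. These arrays were labelled from total RNA and the probe sets may read precursors or host transcripts rather than mature microRNAs.

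The families Mir297, Mir466, Mir467 and Mir669 are shown because they leaned 1 way. Of their 76 measured genes 34.2% were called, against 8.66% of the other microRNA genes and 25.4% of all members. Of the 76, 0 were higher, 26 lower and 50 did not pass, and 69 had a difference below 0, a grouping made after the values had been seen and not tested. On chromosome 2, where most of them lie in a cluster, 19 of 62 were lower, and elsewhere 7 of 14. Mir466j read 12.74, 12.82 and 12.52 in 3s cultures and 13.10, 13.19 and 13.15 in 30s cultures (-0.45). Mature sequences of 8 of these genes were in RefSeq (GRCm38.p6), and each held UGUGUG or ACACAC, as did 2.63% of the other microRNA genes with a sequence, and their separate values are uncertain. The seed, bases 2 to 8, is in capitals, and no 2 of those printed share one.
miR-302b-3p (chr3:127545275-127545297, plus strand): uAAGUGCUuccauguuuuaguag
miR-181c-5p (chr8:84178924-84178945, minus strand): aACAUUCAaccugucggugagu
miR-466j (chr10:60960802-60960824, plus strand): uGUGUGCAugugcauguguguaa
miR-466k (chr3:85467396-85467418, plus strand): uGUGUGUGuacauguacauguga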

How the data were processed

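Total RNA of 12 cultures, 3 for each of 2 lines and 2 treatments, was hybridised as biotin-labelled cDNA to mouse transcriptome arrays. The authors deposited log2 values, which they had made with RMA in Affymetrix Expression Console 1.4, named in the submitters' processing notes; the study's methods name Partek Genomics Suite for the analysis. RMA corrects background and equalises the arrays, so a shift of all genes is removed. The sources used here give no annotation build. Of 72688 probe sets 30638 had a single gene symbol, 2176 several, 33142 none and 6732 were controls. Each gene was represented by its brightest probe set, judged by the 12-array mean. RefSeq (GRCm38.p6) gave current names, gene order and sequences.

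limma 3.58.1 in R 4.3.3 was fitted to all 12 arrays with 4 group means and moderated variances, and p-values were Benjamini-Hochberg adjusted over 30098 genes. The methods' Student's t-test was an alternative, at their thresholds and after adjustment. The other alternatives were a replicate block, the vehicle arrays alone, array weights, other moderation, other scalings, omission of dim genes, other handling of several probe sets and omission of each array. The fits were tested on simulated data. Named genes were the 15 largest differences each way among called genes without overlap, up to 6 members of each list, the extremes and brightest genes of each immunoglobulin class, the defining genes whatever their values, and the largest microRNA differences. Members and lists were chosen with earlier results of these data known.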

Additional observations from a re-analysis of the deposited data

Results flagged for a closer look

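The 3s minus 30s difference was compared between the IFNβ and the vehicle cultures with limma's interaction term, adjusted over all genes, and 293 of the 28183 members (1.04%) and 36 of the 273 named genes passed. The named genes were chosen largely for large differences, so their share is not read against that of all members. Values below are the log2 difference between the lines in IFNβ cultures minus that in vehicle cultures, 3 cultures per line and treatment. IFNβ effects common to both lines cancel in this value. By design IFNβ excises Runx1 in 3s cells only, so excision and a response to IFNβ that differs between the lines cannot be told apart. In vehicle cultures Igll1 (5.11) and Dap (4.92) lay under the floor in 3s cells. Rag2 (5.58), S100a6 (4.59) and Gstt3 (5.37) lay under it in 30s cells. The size of the change is uncertain for these genes, and which line it came from was not tested.

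Among genes higher in 3s cells in vehicle cultures, the gap was wider after IFNβ for Rag2 (2.982), Brwd1 (2.553), Cd36 (1.441) and Tfpi (0.805). It was also wider for the signalling, surface and metabolic genes Pik3cb (0.689), Syk (0.387), Samd9l (0.799), S1pr1 (0.684), Igf2r (0.86), Bst1 (0.579), Elovl6 (0.405) and Smarca2 (0.351). Of the kappa V genes named in the middle stretch, those that passed with a wider gap were Igkv4-59 (1.553), Igkv4-86 (1.54), Igkv4-50 (1.312) and Igkv14-111 (0.989). The gap was narrower for S100a6 (-1.659), H2-DMb2 (-0.723), H2-DMb1 (-0.697), H2-DMa (-0.7), Xaf1 (-0.616), Gbp3 (-0.496), Gstt3 (-0.337) and Tap1 (-0.279).

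Among genes lower in 3s cells in vehicle cultures, the gap was wider after IFNβ for Igll1 (-1.53), Dap (-0.787), Anxa1 (-0.746) and Blk (-0.476). It was narrower for Il2ra (0.872) and Pik3r3 (0.897) and for the kappa V genes Igkv1-133 (1.538) and Igkv1-135 (1.419). Il7r, which did not pass in vehicle cultures, was lower in 3s cells in IFNβ cultures, by a change of the difference of -0.492. The difference changed sign and was called in both sets for Tlr4 (-1.056), Nnt (0.604) and Mrc1 (0.445).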

How the results depend on the processing

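Under the methods' t-test 4736 genes were called after Benjamini-Hochberg adjustment and 4081 at the methods' unadjusted p and fold thresholds, against 7150 with limma. Under the other alternatives the count was 6430 to 7388, and without each array in turn 6073 to 6669. Genes over 2-fold numbered 530 to 560 under the alternatives and 540 to 568 without each array. Same-numbered cultures of the lines did not deviate together (correlations of -0.06, -0.12 and 0.03), so the numbers do not pair them, and a fit with the replicate block called 6930 genes, 548 of them over 2-fold.

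With the adjusted t-test the called members were 4 for plasma cells (7 with limma), 6 for interleukin 7 (11), 9 for p53 (17), 14 for DNA repair (23), 0 for myeloid markers (4), 0 for T and NK markers (2), 1 for stromal markers (2) and 7 for Ighv genes (19). The Myc and Max network had 9 called members with median centring and with dim genes left out, against 5. T and NK markers had 1 with the 6 vehicle arrays alone, array weights, median centring, quantile normalisation, cyclic loess or dim genes left out, and stromal markers 1 with dim genes left out. Without each array in turn p53 had 11 to 16, myeloid markers 2 to 4, T and NK markers 0 to 1 and stromal markers 1 to 2. The cause was not tested.

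Some smaller chromosome medians changed sign, such as that of chromosome 13, at 0.052 above the floor and -0.001 with all genes. The medians of chromosomes 3, 19, 9, 8 and 7 kept their sign. With all genes, genes above 8, quantile normalisation and cyclic loess they were -0.071, -0.347, -0.3 and -0.302 for chromosome 3, -0.063, -0.286, -0.246 and -0.26 for chromosome 19, 0.015, 0.239, 0.133 and 0.125 for chromosome 9, 0.018, 0.246, 0.125 and 0.12 for chromosome 8, and 0.015, 0.261, 0.129 and 0.12 for chromosome 7. Fas was reversed by its other probe set (-0.206), and the probe sets are annotated to different places. Of 261 called named genes 211 passed under every alternative and 23 lost the call without some array. With 1 tumour per line and 3 cultures each, these data cannot separate line from genotype, and genes under the floor have no measured level.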
